A study of Mus musculus with 6 samples.

Results

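Serpins are a family of proteins that mostly act as suicide inhibitors of proteases: a target enzyme cleaves an exposed loop of the serpin, the serpin changes shape, and the enzyme is held in a dead complex. The clades, lettered A to I and written in the gene symbol, follow the relatedness of the proteins. Clade A holds plasma proteins made largely by the liver, clade B holds proteins that stay mainly inside cells and guard them against granzymes, cathepsins and neutrophil proteases, and some members, such as Serpinf1 and Serpinh1, inhibit no protease at all. The genes described here are all those whose symbol starts with Serpin, a clade letter from a to i and a digit, and 48 of the 19938 genes measured met that rule: 15 of clade A, 24 of clade B, 2 each of clades F and I, and 1 each of clades C, D, E, G and H. The mouse RefSeq table (assembly GRCm38.p6) lists 69 such genes. The other 21, among them Serpine2, Serpina3f and Serpina3g, had no probe set that carried their symbol alone and were not analysed here.

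RNA was taken from cells positive for F4/80, a surface protein of mouse macrophages, out of tumours growing in wild type hosts (3 samples) or in hosts of the St2-/- genotype (3 samples), which lack ST2, through which cells sense the cytokine IL-33. The labels name neither the tumour nor the age or strain of the mice, and nothing in them says that replicates were different mice. The p-values therefore reflect the spread among these samples alone, and that spread may be technical. Each sample was hybridised to 1 Affymetrix Gene 1.0 ST array, so precision is set by 3 arrays a group. Values are log2 RMA values, differences are St2-/- minus wild type, and a gene was called higher or lower at an adjusted p under 0.05 in limma over all genes. That call was made for 20.8% of all genes, 10.7% higher and 10% lower, with a median difference of -0.02. Higher calls were 51.7% of all calls, and 72.6% once array medians were set equal, which moved the median difference to 0.06. Arrays correlated at 0.996 to 0.998 within groups and at 0.986 to 0.988 between them. No probe set carried the symbol of the gene of ST2 alone, and the genotypes were not checked on that gene. All 10 macrophage markers on a list drawn up for this comparison lay above the dimmest 40% of genes, and 3 were called higher, 4 lower and 3 not called. The lower ones were Msr1, Mertk, Lyz2 and Cd14, at differences of -0.76, -0.72, -0.71 and -0.35, and Aif1 had the largest rise, 0.59. Adgre1, which encodes F4/80 and was called higher, ranged from 11.28 to 11.36 in wild type and from 11.58 to 11.65 in St2-/-, and Csf1r, the receptor for macrophage colony-stimulating factor, from 12.05 to 12.08 and from 12.07 to 12.14. Since each sample is bulk RNA, fewer cells of a type and less RNA per cell cannot be told apart.

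Of the 48 Serpin genes, 6 were called (12.5%, against 20.8% of all genes): Serpinb2, Serpinb6a, Serpinf1, Serpinh1 and Serpinb1a were lower in St2-/- and Serpinb9 was higher. The family was mostly dim. With a limit of 5.26, below which the dimmest 40% of all genes lie by their mean over the 6 arrays, 40 members were dim and 8 were not. Among those 8, 5 were called, where 30.4% of all genes above the limit were, and among the 40 dim members 1 was called, Serpinb1a, where 6.39% of dim genes were. Serpinb2 lay above the limit only through its wild type samples (its mean over the 6 arrays was 5.31), so the count of 5 describes these members and supports nothing further. The 8 were Serpinb2, Serpinb6a, Serpinb6b, Serpinb8, Serpinb9, Serpinf1, Serping1 and Serpinh1. The median difference over all 48 members was -0.04. The groups did not overlap for 12 members, or 25%, against 36.4% of all genes.

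**Figure D1:**
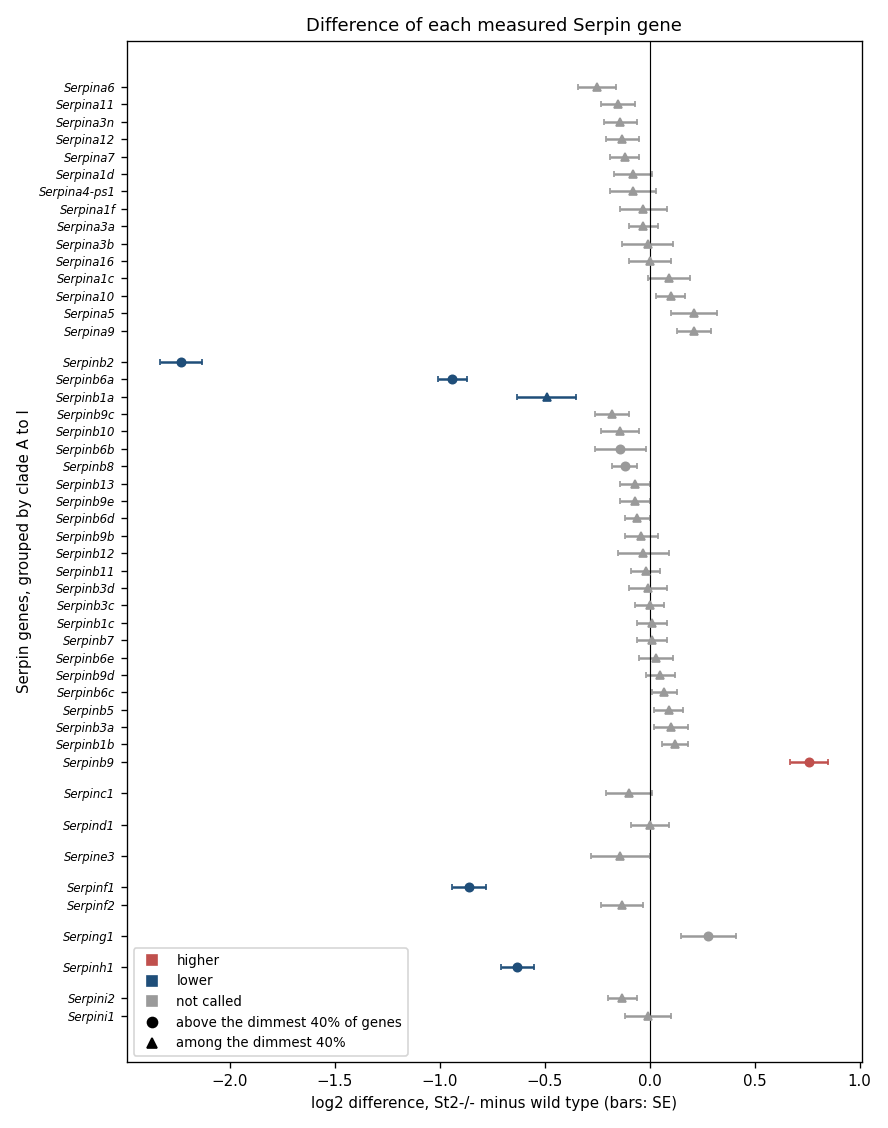
Log2 difference (St2-/- minus wild type, with its standard error) of each of the 48 measured Serpin genes, grouped by clade; colour gives the call and triangles mark members among the dimmest 40% of genes. Serpinb2 lies far to the left at -2.23, Serpinb9 is the member called to the right at 0.76, and the uncalled members lie between -0.25 and 0.28.

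The sequences before the transcription starts of 5 of the 6 called genes are shown (Serpinb1a had no window in the table), because 2 genes of 1 clade and 1 gene cluster, Serpinb9 and Serpinb6a, carry the same type of interferon motif while their levels moved in opposite directions, and because Serpinb2, the member with the largest fall, holds a TATA box, which the windows of the other 4 called genes shown do not. A TATA box was found in 11 of the 41 members with a window, 10 of them not called. Bases are RefSeq's (GRCm38.p6), written 5′ to 3′ on the strand of the gene and ending at the base before the start, and capitals mark motif matches. The windows are chr1:107511173-107511422 (+ strand, the first of 2 listed starts) for Serpinb2, chr13:33004291-33004540 (+ strand) for Serpinb9, chr13:34002795-34002894 (- strand, the first of 2 listed starts) for Serpinb6a, chr11:75422624-75422723 (- strand) for Serpinf1 and chr7:99353240-99353339 (- strand) for Serpinh1.
Serpinb2: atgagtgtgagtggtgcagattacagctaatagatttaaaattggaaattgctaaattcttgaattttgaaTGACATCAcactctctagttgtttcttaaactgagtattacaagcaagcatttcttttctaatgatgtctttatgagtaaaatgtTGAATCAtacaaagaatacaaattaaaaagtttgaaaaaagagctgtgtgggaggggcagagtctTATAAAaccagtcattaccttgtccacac
Serpinb9: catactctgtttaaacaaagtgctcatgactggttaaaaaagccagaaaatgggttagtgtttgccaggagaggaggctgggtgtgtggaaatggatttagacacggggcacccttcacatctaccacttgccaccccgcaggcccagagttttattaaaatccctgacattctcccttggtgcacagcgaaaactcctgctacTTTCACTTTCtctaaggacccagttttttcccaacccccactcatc
Serpinb6a: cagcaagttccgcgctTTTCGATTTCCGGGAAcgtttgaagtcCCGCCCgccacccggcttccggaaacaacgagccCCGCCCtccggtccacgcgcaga
Serpinf1: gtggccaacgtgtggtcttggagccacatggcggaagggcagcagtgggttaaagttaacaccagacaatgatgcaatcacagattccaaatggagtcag
Serpinh1: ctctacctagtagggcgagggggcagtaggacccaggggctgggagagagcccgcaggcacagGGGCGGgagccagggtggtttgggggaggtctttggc

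Motifs were searched on both strands in the 250 bases before each start. A member counts once if the window of any of its listed starts matches, whereas the percentages count single windows, so these shares are not strictly alike. The core of the interferon-stimulated response element (ISRE, GAAA, any 2 bases, GAAA) was found in 2 of the 41 members that have a window, and in 2.98% of all 32851 windows. Those members were Serpinb9, where it reads TTTCACTTTC from base -46 to base -37, and Serpinb6a, where TTTCGATTTC runs from -84 to -75. In Serpinb6a the last bases of this match overlap a match to the gamma-activated site (GAS, TTCNNNGAA, in 7.02% of windows) at -77 to -69. A GAS match also lies before the second listed start of Serpinb2, and the motif was found in 5 of the 41 members. Upstream of the first start of Serpinb2 stand a TATA box (TATAAA, 12.4% of windows) from -29 to -24, a match to the AP-1 site (TGANTCA, 6.75%) from -94 to -88 and a match to a CRE-like site (TGACNTCA, 7.49%) from -179 to -172. Matches to these 3 motifs were found in 11, 9 and 6 of the 41 members, among them Serpinb7, the neighbour of Serpinb2, for the TATA box and AP-1. The GC box (GGGCGG, 32.7%) was matched in Serpinh1 from -37 to -32 and in Serpinb6a from -57 to -52 and from -23 to -18. Serpinf1 had no match to these 6 motifs. A match is a run of letters, and whether any factor binds there was not measured.

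Clade B held the largest changes in both directions. Serpinb2 (probe set 10349157), known as plasminogen activator inhibitor type 2 and made in large amounts by stimulated monocytes and macrophages, read 6.38, 6.59 and 6.30 in the 3 wild type samples and 4.17, 4.35 and 4.07 in the St2-/- samples. All 3 St2-/- samples lay far below the lowest wild type sample, and under the limit of 5.26 that bounds the dimmest genes. The difference was -2.23 ± 0.10 (SE), or 4.68-fold lower on these values (adjusted p = 4.15e-07 in limma). No detection call was used, so whether the St2-/- values hold any signal of the gene was not tested.

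Serpinb6a (probe set 10408600), a cytosolic inhibitor of cathepsin G, read 9.37, 9.25 and 9.14 in wild type and 8.31, 8.29 and 8.35 in St2-/-. The St2-/- samples were close to one another and all below the lowest wild type sample. It was 1.91-fold lower, a difference of -0.94 ± 0.07 (SE, limma adjusted p = 1.86e-05). Serpinb1a (probe set 10408557), which inhibits neutrophil elastase, proteinase 3 and cathepsin G, read 4.27, 4.17 and 4.13 in wild type and 4.07, 3.64 and 3.40 in St2-/-. The groups did not overlap, but the first St2-/- sample lay next to the wild type range, and all 6 values lay in the dim part of the scale. Its difference of -0.49 ± 0.14 (SE) had a limma adjusted p of 0.0388. That call was lost without any 1 of 5 arrays (all except St2-/- replicate 1; adjusted p from 0.0712 to 0.116), after centring on array medians (0.0586) and after cyclic loess (0.069).

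Serpinb9 (probe set 10404429), the inhibitor of granzyme B that protects cytotoxic and antigen-presenting cells from their own or a neighbour's granules, rose. It read 5.42, 5.65 and 5.57 in wild type and 6.43, 6.19 and 6.31 in St2-/-, so each St2-/- sample was above each wild type sample. The level was 1.70-fold higher, a difference of 0.76 ± 0.09 (SE, limma adjusted p = 0.000183). Serpinb9 was the 1 Serpin gene called higher.

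**Figure D2:**
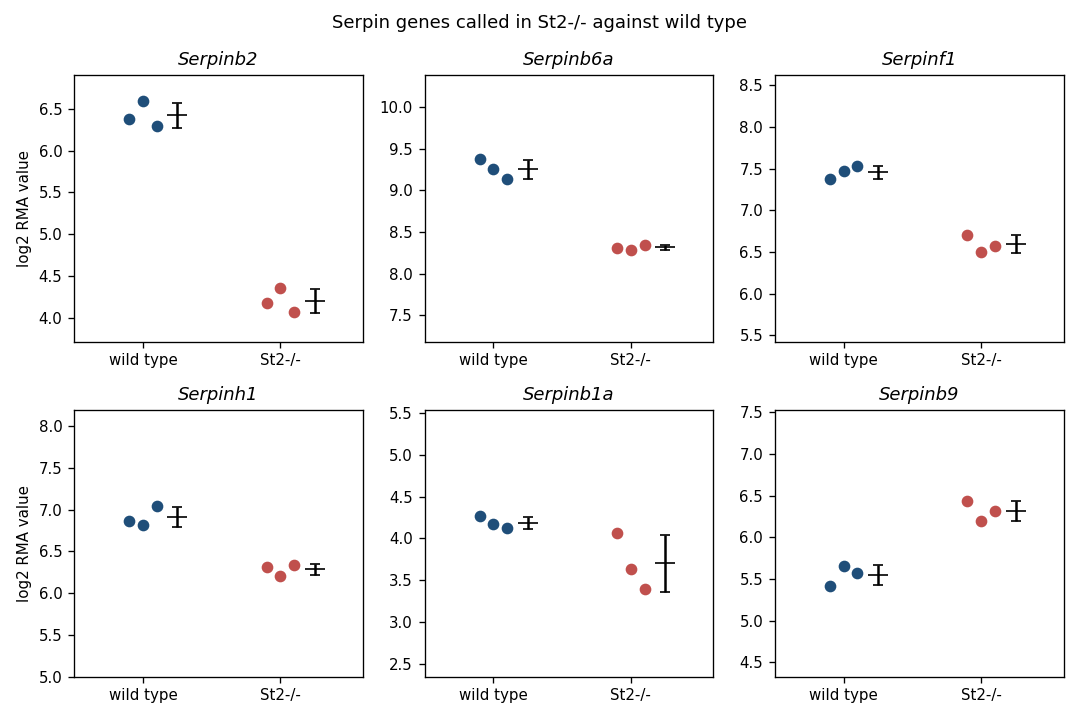
Log2 RMA values of the 6 called Serpin genes in each wild type and St2-/- sample (points), with the group mean and SD (black); each panel spans the same log2 range. The St2-/- points lie below the wild type points for 5 genes and higher for Serpinb9, and the St2-/- points of Serpinb1a spread from 3.40 to 4.07.

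The other brighter clade B members did not pass. Serpinb8, which inhibits furin in the test tube, read 7.38, 7.31 and 7.35 in wild type and 7.21, 7.23 and 7.23 in St2-/-. The groups were apart but by little, with a difference of -0.12 ± 0.06 (SE, limma adjusted p = 0.186). Serpinb6b, a close relative of Serpinb6a, read 6.07, 6.37 and 6.40 in wild type and 6.01, 6.40 and 6.0 in St2-/-, groups that overlap (difference -0.14 ± 0.12 SE, limma adjusted p = 0.472). The 18 dim clade B members that were not called differed by -0.18 (Serpinb9c) to 0.12 (Serpinb1b), with means of 2.72 to 4.34. They include Serpinb5, the epithelial protein maspin, at a difference of 0.09 and the relatives of human squamous cell carcinoma antigen Serpinb3a, Serpinb3c and Serpinb3d. The subfamilies Serpinb1, Serpinb3, Serpinb6 and Serpinb9 have expanded in the mouse into near-identical copies, which array probes may not resolve, and their separate values are uncertain.

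By the order of genes in RefSeq, clade B lies in 2 clusters. The cluster on chromosome 1, which also carries the gene of ST2 at a distance of 416 protein-coding genes, has 12 clade B genes, of which 11 were measured. Serpinb2 was called there and the other 10 were not: its neighbours Serpinb7 and Serpinb10 differed by 0.01 ± 0.07 and -0.14 ± 0.09 (SE). Both neighbours were dim, with means over the 6 arrays of 2.90 and 3.30. A difference near 0 at such levels does not show that a gene was unchanged. The cluster on chromosome 13 has 17 clade B genes, of which 13 were measured, 2 were lower and 1 was higher. Serpinb1a and Serpinb6a, which were lower, stand at its ends. Serpinb9 stands between Serpinb6b and Serpinb9b, which differed by -0.14 ± 0.12 and -0.04 ± 0.08 (SE). Of these neighbours Serpinb9b was dim (mean 4.34) and Serpinb6b was not (mean 6.21). Taken within each array, the value of Serpinb9 minus that of Serpinb6b was 0.91 higher in St2-/- than in wild type, Serpinb2 minus Serpinb8 differed by -2.10, and Serpinb6a minus Serpinb6b by -0.79. For these 3 pairs the groups did not overlap. The two-sided exact permutation p was 0.1 for each pair and 0.1 after adjustment over the 3 pairs. That is the smallest p that 3 against 3 samples allow. The pairs were chosen after values were seen, so this outcome could be foreseen and supports nothing further.

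**Figure D3:**
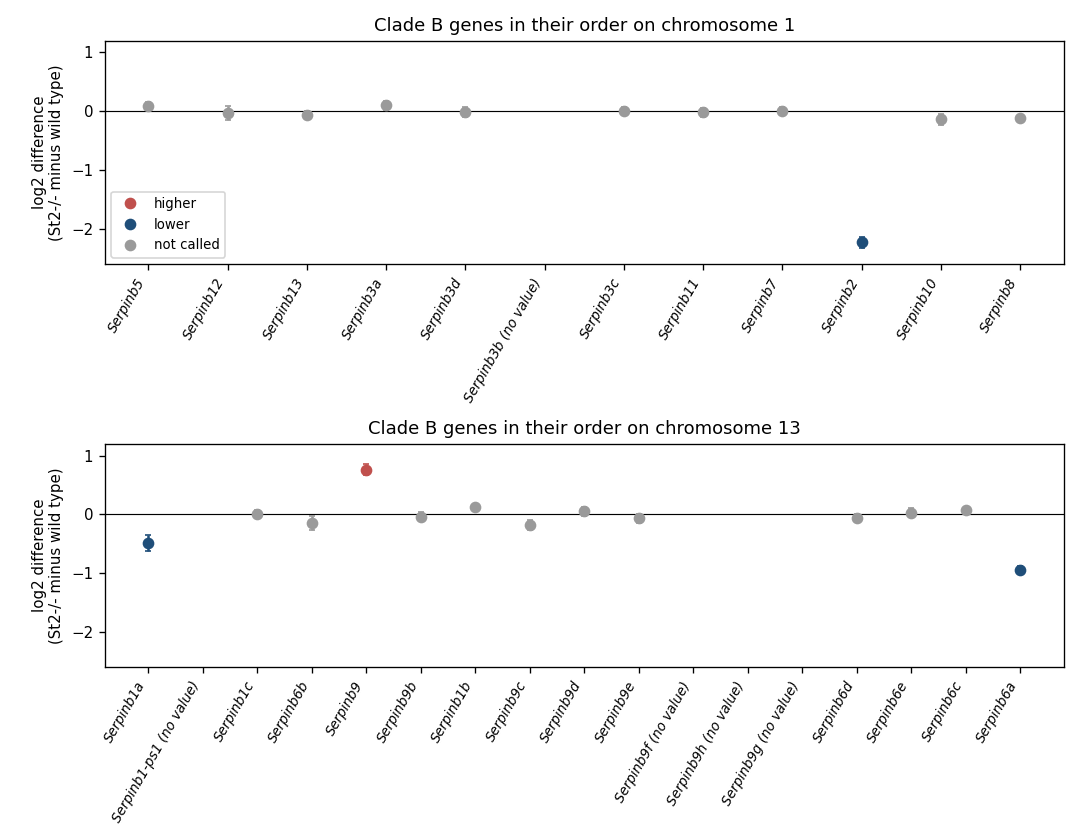
Log2 difference (St2-/- minus wild type, with its standard error) of the clade B genes in their order along chromosomes 1 and 13; axis positions give order and not distance. The called genes are Serpinb2 on chromosome 1, and Serpinb1a, Serpinb9 and Serpinb6a on chromosome 13. The uncalled genes lie near 0, but most of them are dim, so a change in them could be missed.

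Serpinf1 and Serpinh1, the called members outside clade B, inhibit no protease. Serpinf1 (probe set 10388430) encodes pigment epithelium-derived factor, a secreted protein that restrains vessel growth. It read 7.37, 7.47 and 7.53 in wild type and 6.71, 6.50 and 6.57 in St2-/-, and no St2-/- sample reached the lowest wild type sample. This is 1.82-fold lower (difference -0.86 ± 0.08 SE, limma adjusted p = 4.23e-05). Serpinh1 (probe set 10565794) encodes the chaperone of the endoplasmic reticulum that folds procollagen. Its values were 6.87, 6.82 and 7.05 in wild type and 6.31, 6.21 and 6.34 in St2-/-, again without overlap. That is 1.54-fold lower (difference -0.63 ± 0.08 SE, limma adjusted p = 0.000363). Serpinf1 and Serpinh1 are genes that fibroblasts express strongly. In a list of 10 fibroblast and pericyte markers, 6 were lower, 1 (Col1a2, also on the collagen list) was higher and 3 were not called. Of those 10, 1 was dim. The lower call of Col1a1 (-0.34), which is on the collagen list too, was lost in 6 of 17 settings other than the minimum fold. Over all genes 20.8% were called, and 30.4% of those above the dim limit. Dcn, the proteoglycan decorin, read 11.31, 11.39 and 11.31 in wild type and 8.13, 7.87 and 8.03 in St2-/-. Lum, the related lumican, differed by -3.56, and the growth factor receptors Pdgfra and Pdgfrb by -1.74 and -1.40, while Thy1, Fap and Postn were not called. The mean of that list ranged from 7.24 to 7.28 over the wild type samples and from 6.16 to 6.23 over the St2-/- samples, and its part in the Serpinf1 and Serpinh1 results was not tested.

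Serping1, the inhibitor of the first component of complement, read 5.24, 5.63 and 5.35 in wild type and 5.52, 5.95 and 5.60 in St2-/-. The groups overlap, and the difference of 0.28 ± 0.13 (SE) was not called (limma adjusted p = 0.158). Serpinf2, the inhibitor of plasmin, differed by -0.13 ± 0.10 (SE). The coagulation inhibitors antithrombin (Serpinc1) and heparin cofactor (Serpind1) differed by -0.10 ± 0.11 and -0.00 ± 0.09, and neuroserpin (Serpini1) by -0.01 ± 0.11 (SE). Serpine3, the 1 measured member of clade E, was dim and differed by -0.14 ± 0.14 (SE).

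None of the 15 clade A members was called in limma, where 6.39% of dim genes were, and 2 had an unadjusted p under 0.05, as did 6571 of all 19938 genes. These plasma proteins were all dim here, with means over the 6 arrays of 2.84 to 4.99. Differences ran from -0.25 for Serpina6, the corticosteroid-binding globulin (limma adjusted p = 0.0902), to 0.21 for Serpina5, the inhibitor of activated protein C, and Serpina9 also differed by 0.21 (limma adjusted p = 0.12). Serpina3n, an acute phase inhibitor, differed by -0.14 ± 0.08 (SE), and the antitrypsin genes Serpina1c and Serpina1d by 0.09 ± 0.10 and -0.08 ± 0.09 (SE). Of 9 measured hepatocyte markers 6 were dim, 1 was lower (Hp) and 0 higher. Serpina9 passed limma after centring on array medians and after cyclic loess, Serpina6 without wild type replicate 2 (a setting that called Serpine3 too), and the copies of Serpina1 and Serpina3 are too alike for their separate values to be certain.

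The enzymes, receptors and partners of serpins were read from 9 lists, without a set test. For comparison, 20.8% of all genes were called, 10.7% higher and 10% lower. The share called was 30.4% among genes above the dim limit and 6.39% among dim genes. In plasminogen activation, the system that Serpinb2 inhibits, 4 of 9 measured genes were lower, 1 was higher and 4 were not called (median difference -0.22). Plau, the urokinase, rose slightly: it read 10.92, 10.99 and 10.96 in wild type and 11.30, 11.21 and 11.27 in St2-/-, a difference of 0.30 ± 0.06 (SE). Its receptor Plaur fell, from 9.56, 9.73 and 9.68 to 9.05, 9.10 and 9.10, a difference of -0.57 ± 0.07 (SE). Plat, the tissue-type activator, fell by 0.61 on the log2 scale, a call lost in the two-sample test with no moderated variance (adjusted p = 0.0709). S100a10 and Anxa2, which together bind plasminogen at the cell surface, differed by -0.89 and -0.61. Plg itself was dim and differed by -0.07 ± 0.10 (SE).

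Of 20 coagulation proteases, cofactors and receptors, 10 were lower, 2 were higher and 8 were not called (median -0.22). Under the settings other than the minimum fold, the lower call of Vkorc1 was lost in 13 of 17 and that of F2 in 10 of 17. F13a1, the subunit of the clot-stabilising transglutaminase found in macrophages, read 10.92, 11.04 and 11.04 in wild type and 8.25, 8.25 and 8.31 in St2-/-, a 6.63-fold lower level. F10, the protease that forms thrombin, differed by -0.66. Fgl2, a prothrombin-cleaving protein of macrophages, differed by 1.75, and Procr, the receptor for protein C, by 0.72. Among the granzymes, which Serpinb9 and its relatives restrain, Gzmb was called higher: it read 3.52, 3.69 and 3.67 in wild type and 4.02, 4.18 and 3.87 in St2-/-, a difference of 0.40 ± 0.09 (SE) in the dim range, lost without moderated variances (adjusted p = 0.0954). Prf1, the pore protein perforin, differed by 0.35, and the other 9 of 11 were not called (median 0.00). With the dimmest 40% of genes left out, Prf1 was the 1 member tested and called. Markers of NK and T cells had 4 of 9 higher and 0 lower, with a list mean of 4.39 to 4.54 in wild type and 4.72 to 4.80 in St2-/-, and 7 of the 9 were dim. Cd3g and Cd3e, chains of the T cell receptor complex, differed by 0.94 and 0.72, and Cd8b1 and Cd8a by 0.44 and 0.30, with a list median of 0.13. The Cd8a call was lost in 7 of 17 settings other than the minimum fold and the Cd8b1 call in 1 of 16. Dendritic cell markers had 4 of 10 higher, 2 lower and 4 not called, with list means of 5.95 to 6.11 and 6.70 to 6.79 but a median difference of -0.01. Xcr1, the XCL1 receptor of cross-presenting dendritic cells, read 6.16, 5.88 and 6.07 in wild type and 9.36, 9.41 and 9.46 in St2-/-. Clec9a, a receptor of the same cells for dead cells, differed by 1.88, Itgax by 1.80 and Irf8 by 0.72. Ccr7 (-0.26) and Cd209a (-0.27) were lower, calls lost in 5 of 17 and 12 of 16 settings other than the minimum fold. Zbtb46, Batf3, Flt3 and Siglech were not called, at -0.24, -0.09, -0.01 and -0.00. The part of these cells in the Serpinb9 and Gzmb results was not tested.

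The serine proteases of neutrophils and mast cells, targets of Serpinb1a and Serpinb6a, were dim: 13 of 13 lay among the dimmest 40%, and limma called 0 of them, where 6.39% of dim genes were called (1 with the replicate number as a block, 0 without moderated variances, 1 at an unadjusted p under 0.05). Elane, the neutrophil elastase, was at 4.60 ± 0.13 in wild type against 4.57 ± 0.19 in St2-/- (SD, n = 3 each), and Ctsg, cathepsin G, differed by -0.11 ± 0.07 (SE). Of 10 neutrophil markers 4 were lower and 6 not called, with a median difference of -0.12, and 7 were dim. S100a8 and S100a9, subunits of calprotectin, differed by -1.77 and -1.69, Mmp9 by -0.92 and Cxcr2 by -0.37. The Cxcr2 call was lost in 9 of 16 settings other than the minimum fold. Camp, Ltf, Mmp8, Ly6g, Elane and Ngp lay between -0.12 and 0.03. The mean of that list ranged from 5.05 to 5.13 in wild type and from 4.55 to 4.63 in St2-/-. Platelet and megakaryocyte markers had 5 of 7 lower and 2 not called, and 1 of the 7 was dim. For comparison, 20.8% of all genes were called, and 30.4% of those above the dim limit. The mean of the platelet list ranged from 6.30 to 6.33 in wild type and from 5.69 to 5.71 in St2-/-. Among its markers Ppbp, Pf4, Itgb3 and Gp9 differed by -1.44, -1.03, -0.66 and -0.57. The part of these cells in the Serpinb1a and Serpinb6a results was not tested. The cysteine cathepsins, lysosomal proteases that some clade B serpins also bind, had 2 of 10 higher, 3 lower and 5 not called (median 0.06). Ctsh differed by 0.61 and Ctsl by -0.68, whereas Ctsk (-0.42) and Ctsf (-0.51) lost their calls without moderated variances (adjusted p = 0.0906 and 0.12).

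The first components of complement, whose proteases Serping1 blocks, had 4 of 11 lower, 1 higher and 6 not called (median -0.09). Of those 11, 2 were dim. The share called was 20.8% over all genes and 30.4% above the dim limit. C1s1, a protease of the first component, read 6.74, 6.66 and 6.69 in wild type and 5.62, 5.26 and 5.39 in St2-/-, a 2.42-fold lower level, and Masp1, a protease of the lectin pathway, differed by -0.48. C1s2 (-0.39) and C4b (-0.28) were lower as well and C2 was higher (0.30). However, the count of 5 calls in this list fell to 2 without wild type replicate 1 and to 3 without wild type replicate 3 or any 1 St2-/- sample. That count was also 2 without moderated variances and 2 with all probe sets tested. In a list of receptors that take up serpin and protease complexes, and of related genes, 2 of 8 were lower and 2 higher (median -0.02). Of those 8 genes, 2 were dim. Lrp1, the main such receptor of macrophages, read 11.24, 11.24 and 11.20 in wild type and 10.77, 10.70 and 10.74 in St2-/-, a difference of -0.49 ± 0.06 (SE). Vldlr differed by -1.15, and the related receptors Sorl1 and Lrp8 by 0.81 and 0.30.

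Partners of Serpinh1 in collagen folding had 8 of 17 lower, 1 higher and 8 not called (median -0.20), and 3 of the 17 were dim. Of all genes 20.8% were called, with 30.4% above the dim limit and 6.39% of dim genes. Col6a1 differed by -1.41, Plod2, a lysyl hydroxylase, by -0.94, Col3a1 by -0.61 and Crtap, part of the prolyl hydroxylation complex, by -0.62. Protease inhibitors of other families had 5 of 32 lower, 2 higher and 25 not called (median -0.13), and 4 calls in all without St2-/- replicate 1. Dim genes made up 19 of those 32. Timp2, an inhibitor of metalloproteinases, read 11.59, 11.47 and 11.50 in wild type and 10.04, 10.07 and 10.10 in St2-/-, a 2.73-fold lower level. Timp1 differed by -1.28 (adjusted p = 0.0505 without moderated variances), Wfdc17, a small secreted protein of macrophages, by -1.09, and Spint1, a Kunitz-type inhibitor of serine proteases, by 1.09.

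**Figure D4:**
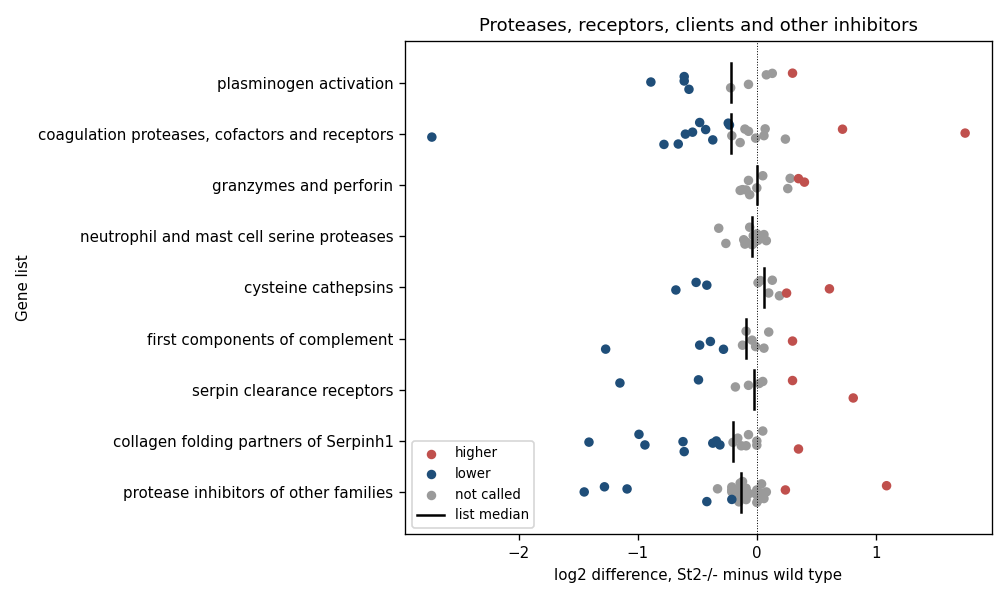
Log2 difference (St2-/- minus wild type) of each measured gene of the 9 lists of proteases, receptors, collagen partners and other inhibitors; points are genes, coloured by call, and black bars are list medians. The list medians lie between -0.22 and 0.06, and calls in both directions occur in 7 lists, with granzymes and perforin called in 1 direction and neutrophil and mast cell proteases not called.

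Markers of the remaining cell types were counted in the same way, beside 20.8% of all genes called (30.4% above the dim limit, 6.39% of dim genes). Endothelial markers had 2 of 10 higher and 7 lower: Cdh5 and Vwf differed by -1.46 and -1.13, and Kdr and Pecam1 by 1.52 and 0.89. Of those 10, 5 were dim, and with the dimmest 40% of genes left out the list had 5 calls in all. Mast cell and basophil markers had 2 of 10 lower (Hdc -1.02 and Kit -0.38; 1 in all without St2-/- replicate 2), and epithelial and keratinocyte markers 2 of 10 lower (Trp63 -0.41 and Krt8 -0.35; 1 in all without wild type replicate 3 or any 1 St2-/- sample).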

How the data were processed

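The authors deposited 1 value per probe set and array. The submitters' processing notes name RMA, which corrects background, normalizes quantiles and summarises probes; which version and which annotation they used is not given here. The log2 scale of the deposited values was inferred from their range, since RMA returns it. No value came from the scanner, and detection calls were not used here.

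Of 35556 probe sets, 21789 carried 1 gene symbol in the platform table, 1621 several and 12146 none listed. The probe set with the highest mean stood for a gene, and each Serpin member had 1. St2-/- (3 arrays) was compared with wild type (3 arrays) with lmFit and eBayes of limma 3.58.1 under R 4.3.3 (two-sided, Benjamini-Hochberg over 19938 genes), with no filter on dim genes. Exact permutation tests used scipy 1.17.1. The gene fit was tested on simulated data. The Serpin members, the 9 pathway lists and the 10 marker lists were chosen with earlier results of these data known. Named are every called member, a set list of well-known members, the extremes of each range, in each list the called genes of smallest p (at most 4), and Plau, Plat, Plaur, Gzmb and Lrp1. Other genes named were chosen after their values were seen. Motifs and within-array pairs were also chosen after values were seen. Alternatives were other scalings, variance priors, array weights, probe set rules, filters, a replicate block, dropping each array in turn, a two-sample test with no moderated variance, and a minimum fold of 1.5 in limma.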

Additional observations from a re-analysis of the deposited data

How the results depend on the processing

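Under 17 settings other than the minimum fold, Serpinb2, Serpinb6a, Serpinf1, Serpinh1 and Serpinb9 kept their direction and their call in each test run, with differences of -2.30 to -2.14, -1.0 to -0.85, -0.92 to -0.78, -0.67 to -0.54 and 0.70 to 0.85. Serpinb1a lost its call in 10 of the 17 settings that tested it. These include the minimum fold but not the setting that left out the dimmest 40% of genes. Against a minimum fold of 1.5, limma called 2 Serpin genes, Serpinb2 and Serpinb6a, 0 higher and 2 lower. The Serpin genes called higher numbered 3 after centring on array medians (with Serpina9 and Serpinb1b), 2 after cyclic loess (with Serpina9) and 2 with the replicate block (with Serping1, adjusted p = 0.0258). Without moderated variances Serpinb8 was called too (adjusted p = 0.0384). Same-numbered samples did not deviate together (correlations of 0.012, -0.012 and -0.048). The labels do not say whether they share more than a number. Of 342 counts of calls in lists, 44 moved by over 1.5 times, 17 of them under the minimum fold. The causes were not tested. Arrays this few and signals this dim limit what can be seen among 40 of the 48 members.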

Other observations

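Of the probe sets outside the comparison, 5 are paired with several Serpin genes and so name none. The pair shared by 5 antitrypsin genes of clade A averaged 4.05 ± 0.05 and 5.99 ± 0.16 (SD, n = 3) in wild type and 4.16 ± 0.07 and 5.95 ± 0.10 (SD, n = 3) in St2-/-. The 3 shared by 4 relatives of Serpinb9 differed by -0.02, 0.07 and -0.06, where Serpinb9 itself, on its own probe set, differed by 0.76.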
